A study of Arabidopsis thaliana with 6 samples.

Results

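SGP1 (AT5G54840) encodes a small GTP-binding protein of Arabidopsis thaliana, and its transcript was followed here across roots that overexpressed RXR1, roots of an rxr1 mutant and wild-type roots. RXR1 is the locus AT3G25240, and its product, of the DUF506 family, is known to restrain the growth of root hairs. SGP1 was taken as the single probe set that the platform annotation gives to it, which is 1 of 22746 probe sets on the Affymetrix ATH1 array other than controls; a probe set is the group of short probes that report on a transcript. The gene was chosen by its log2 signals on all 6 of these arrays, in which the mutant was low, so its levels and differences are given as a description, with no test.

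The arrays held total RNA from roots of seedlings grown upright on half-strength MS medium for 7 days. There were 3 groups of 2 arrays: the AtRXR1 mutant, the AtRXR1 overexpressor (AtRXR1 overexpression in the labels) and wild type (WT). The labels name neither the mutant allele, nor the promoter of the overexpressor, nor the number of lines or plants behind a sample. Nothing in them says that the replicates came from separate cultures, so the p-values below reflect the variation among these particular arrays, and that variation may be technical in origin.

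Small GTPases switch between a GTP-bound active form and a GDP-bound resting form, and so turn the processes they control on and off. SGP1 and its close relative SGP2 resemble Spg1 of fission yeast, the GTPase at the head of the septation initiation network, which starts the division of the cell after mitosis. In fission yeast the signal passes from Spg1 through further kinases, among them a MAP4K-type kinase, to an NDR-type kinase bound by the co-activator Mob1, and plants hold relatives of these components. What SGP1 does in roots is less well known.

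SGP1 was far dimmer in the mutant than on any other array. Its RMA signal, the authors' normalised intensity on a linear scale, reached 40.4 and 25.2 in the mutant, 581 and 522 in the overexpressor, and 518 and 797 in wild type. On the log2 scale these were 5.34 and 4.66 in the mutant, 9.18 and 9.03 in the overexpressor, and 9.02 and 9.64 in wild type. The mutant arrays lay apart from the other 4, whereas the overexpressor arrays lay within the wild-type range. In bulk RNA of this kind, fewer cells that express a gene and less RNA per cell cannot be told apart.

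**Figure D1:**
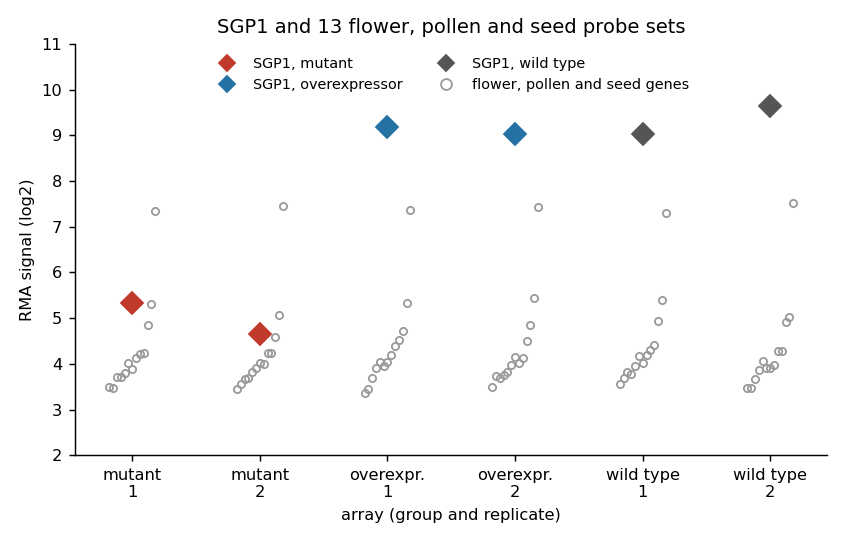
RMA signal (log2, vertical axis) of SGP1 (diamonds) on each of the 6 arrays (horizontal axis), with 13 probe sets of genes known for flowers, pollen or seeds (open circles). SGP1 lies between 9.02 and 9.64 in the overexpressor and wild-type arrays and at 5.34 and 4.66 in the mutant arrays, at the upper end of the circles apart from the brightest, TUA1.

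The group means were 5.0 ± 0.481 in the mutant, 9.11 ± 0.108 in the overexpressor and 9.33 ± 0.439 in wild type (log2, SD, n = 2 each). The difference of the mutant minus wild type was -4.33 ± 0.258 (SE from the fit to all probe sets), which corresponds to a 20.1-fold lower signal. Over the 4 pairings of a mutant array with a wild-type array it ran from -4.98 to -3.68. The overexpressor minus the mutant gave 4.11 ± 0.258, a 17.2-fold higher signal, with single pairings between 3.69 and 4.53. These differences share the mutant arrays and are not separate observations. Their SE is drawn toward the spread of other probe sets. The pooled replicate SD of SGP1 alone was 0.381. With 2 arrays per group, an SE from SGP1 alone equals this SD, so the SE given understates its own spread. The overexpressor minus wild type gave -0.22 ± 0.258, with pairings on both sides of 0 (-0.61 to 0.17), so the highest and the next level in the order wild type, overexpressor, mutant did not differ beyond their spread. That order of the upper groups rested on wild-type replicate 2: without it the overexpressor minus wild type was 0.09, and without wild-type replicate 1 it was -0.53.

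The replicates of SGP1 were further apart than is usual on these arrays. The mutant arrays differed by 0.68, more than 99.5% of the 2659 probe sets whose mutant mean lay within 0.5 log2 of that of SGP1, for which the median gap was 0.113. The wild-type arrays differed by 0.62, more than 95.8% of 2115 probe sets of like level, with a median gap of 0.194. The overexpressor arrays differed by 0.15, more than 85.9% of 2427 probe sets, with a median gap of 0.063. In every group this gap was small beside the 3.68 that separated the brighter mutant array from the dimmest of the other 4.

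Whether any SGP1 transcript was left in the mutant was examined against genes that roots are not known for. Of 68 listed genes of flowers, pollen and seeds, 13 had a named probe set. Their signals ran from 3.47 to 7.35 in mutant replicate 1, with a median of 4.01, and from 3.44 to 7.46 in mutant replicate 2, with a median of 3.99. SGP1 was brighter than 12 of the 13 in mutant replicate 1 and than 11 of the 13 in mutant replicate 2, and brighter than all 13 on each overexpressor and wild-type array. The brightest of the 13 was TUA1, a tubulin gene known from pollen, at 7.30 to 7.53, above the median of all probe sets on each array (6.76 to 6.80), so it was not dim. The next was EMS1, a receptor kinase of anther development, at 5.32 and 5.08 in the mutant, 5.34 and 5.44 in the overexpressor, and 5.40 and 5.03 in wild type. Apart from TUA1, 0 of the other 12 were brighter than SGP1 in mutant replicate 1, where EMS1 was just below it, and 1 of the 12, EMS1, was brighter in mutant replicate 2. The mutant signal of SGP1 therefore lay at the upper end of these 12 dim probe sets, slightly above their range on the first array and within it on the second. It ranked above 34% of all probe sets in mutant replicate 1 and above 26.3% in mutant replicate 2, against 84.9% to 86.6% in the overexpressor arrays and 85% to 90.4% in the wild-type arrays. Probe sets differ in how brightly they report the same amount of RNA, and no detection calls were used here, so these ranks show neither that the transcript was present in the mutant nor that it was absent.

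Because a dim signal holds background as well as transcript, the difference was also computed with the mutant arrays raised to the 95th percentile of the 13 probe sets, which was 6.13 and 6.03. The mutant minus wild type was then -3.24, a 9.48-fold lower signal, and the overexpressor minus the mutant was 3.02, an 8.13-fold higher signal. This floor was set by TUA1: without it, an alternative chosen after seeing the data, the percentile was 5.06 and 4.81, below SGP1 in mutant replicate 1, and the differences were -4.26 (19.1-fold lower) and 4.03 (16.4-fold higher). The 13 were far steadier than SGP1 and varied over the 6 arrays by 0.17 to 0.40, against 4.98 for SGP1. In the mutant minus wild type all 13 had values below 0, with a median of -0.07, beside a median of -0.005 over all probe sets.

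No other probe set separated the mutant in this way. SGP1 had the largest absolute difference of all 22746 probe sets in the mutant minus wild type. The next there was 2.07, higher in the mutant, from a probe set not matched to a single locus here. SGP1 was also first in the overexpressor minus the mutant, where the next was 2.06. The median absolute difference over all probe sets was 0.1 and 0.0725 in these comparisons. Both mutant arrays were below the other 4 arrays in 1670 probe sets (7.34% of all) and above them in 1390 (6.11%). Among those 1670 the gap between the brighter mutant array and the dimmest other array exceeded 1 log2 in 2 probe sets. These were SGP1 at 3.68 and a probe set not matched to a single locus here at 1.16. In the upward direction the largest gap was 0.53.

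**Figure D2:**
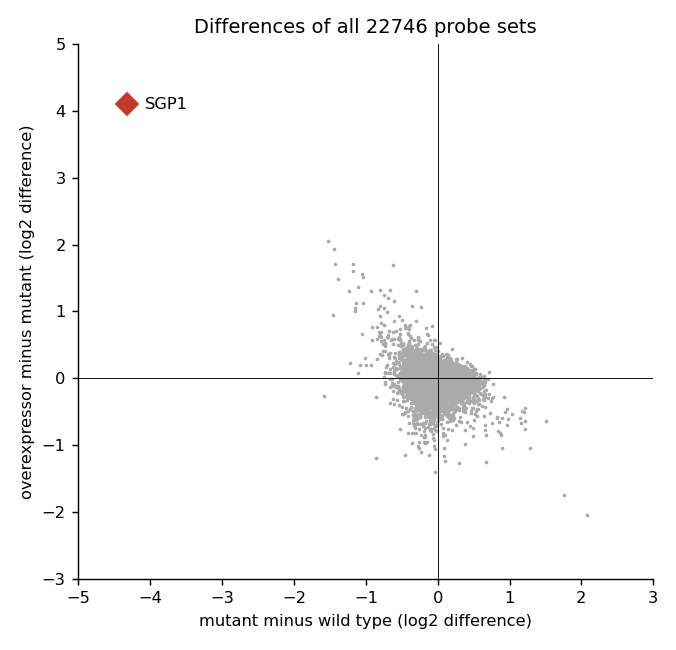
Difference of the mutant minus wild type (horizontal axis, log2) against the overexpressor minus the mutant (vertical axis, log2) for all 22746 probe sets (grey points), with SGP1 as a diamond at -4.33 and 4.11. Both axes use the same mutant arrays, which by itself tilts the cloud downward to the right; SGP1 lies well outside it.

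The named genes nearest to SGP1 in this gap were AT4G27654 (0.74), AT4G29780 (0.61), CML38, a calmodulin-like protein (0.58), AT3G02840 (0.45) and AT2G20142 (0.41). CML38 had log2 signals of 4.05 and 4.79 in the mutant, 5.53 and 6.42 in the overexpressor, and 5.37 and 5.59 in wild type. AT4G27654 had 5.21 and 5.70 in the mutant, 6.44 and 7.44 in the overexpressor, and 6.70 and 6.98 in wild type. In both genes the mutant arrays were the lowest, and the replicates were far apart in the mutant as well as in the overexpressor. In the other direction the named genes with the widest gap were AT5G51520 (0.53), AT5G35940 (0.51), AT1G23160 (0.44), AT4G23590 (0.39) and AT1G50060 (0.37), each brighter in both mutant arrays.

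Likeness of pattern was measured by Pearson's r with SGP1 over the 6 arrays, among the 371 probe sets that varied by at least 1 log2, of which 171 had a named gene. The 6 points share the wide step between the mutant and the rest, so r mostly ranks genes by that step, and it is given as a description. The highest values among named genes were 0.867 for AT4G27654, 0.855 for AT1G19380, 0.851 for AT2G22880, 0.826 for AT5G39670 and 0.823 for AT5G26270. The lowest were -0.921 for AT5G35940, -0.87 for AT4G19460 and -0.862 for AT5G51520. None of the 371 had an r above 0.9. The 5 most alike genes varied by 1.07 to 2.24 log2 over the arrays, and their differences of the mutant minus wild type were between -1.39 and -0.60, against -4.33 for SGP1.

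Plant relatives of the yeast components, with SGP2 among them, did not show such a step. Of these, AT2G19400 and AT2G20470 were too dim on every array to show a fall of that size. Of 16 such genes listed, called partners here for short, 12 had a named probe set. Whether their products act with SGP1 in roots was not tested. In the mutant minus wild type, 0 of the 12 were called at an adjusted p under 0.05. Over all probe sets, SGP1 included here and below, the share called was 0.0044%, which is 1 of 22746, lower in the mutant. At so low a share, a count of 0 among 12 was nearly fixed beforehand. At an unadjusted p under 0.05, 0 were higher (4.99% of all) and 0 were lower (4.33% of all). With 12 genes these counts are near the background, so they say little about the genes. Their median difference was -0.03, with values from -0.26 to 0.19 and a lowest adjusted p of 0.552 (limma), beside a median of -0.005 over all probe sets.

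SGP2 (AT3G21700), the nearest relative of SGP1, had log2 signals of 7.60 and 7.72 in the mutant, 7.44 and 7.20 in the overexpressor, and 7.67 and 7.71 in wild type. The mutant and wild-type arrays of SGP2 lay together and the overexpressor arrays were below all of them. Its difference of the mutant minus wild type was -0.03 ± 0.106 (SE, n = 2 per group, limma, adjusted p = 0.941). The overexpressor minus wild type was -0.37 ± 0.106 (unadjusted p = 0.00929, limma, adjusted p = 0.278) and the overexpressor minus the mutant was -0.34 ± 0.106 (unadjusted p = 0.0139, limma, adjusted p = 0.759). None of these passed the test over all probe sets.

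AT3G15220, listed as a MAP4K-type kinase, had 8.09 and 8.04 in the mutant, 8.06 and 8.10 in the overexpressor, and 8.17 and 8.07 in wild type. MOB1-like (AT5G45550), the plant relative of the co-activator Mob1, had 9.96 and 10.04 in the mutant, 10.01 and 9.98 in the overexpressor, and 10 and 10.03 in wild type. For both genes the groups overlapped. The mutant minus wild type was -0.05 ± 0.0866 for AT3G15220 and -0.02 ± 0.0846 for MOB1-like.

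AT4G19045, listed as a second Mob1 relative, had 6.90 and 6.81 in the mutant, 6.64 and 6.6 in the overexpressor, and 6.86 and 7.14 in wild type, so that its overexpressor arrays were the lowest. Its overexpressor minus wild type was -0.38 ± 0.113 (limma, adjusted p = 0.303), and its mutant minus wild type was -0.14 ± 0.113.

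**Figure D3:**
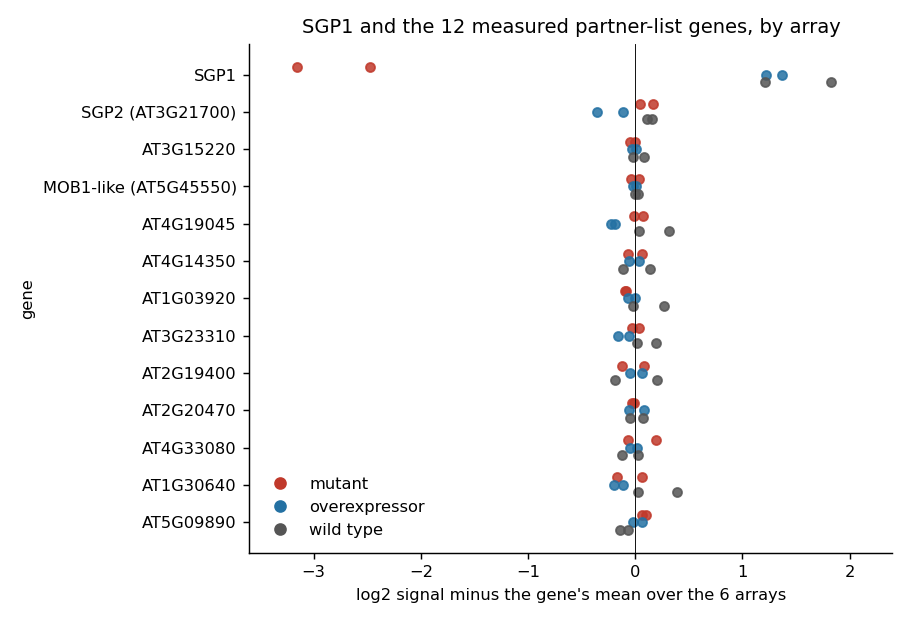
Log2 signal of each gene on each array minus its mean over the 6 arrays (horizontal axis) for SGP1 and the 12 measured genes of the partner list (rows), with mutant arrays in red, overexpressor arrays in blue and wild-type arrays in grey. The mutant points of SGP1 stand alone at the left, while all points of the other 12 genes stay close to 0.

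The other 8 measured loci of this list were entered in it as NDR-type kinases; the gene table gives them no symbol. In the mutant minus wild type they lay between -0.26 for AT1G30640 and 0.19 for AT5G09890. AT1G03920 had 7.45 and 7.44 in the mutant, 7.47 and 7.54 in the overexpressor, and 7.52 and 7.81 in wild type (-0.22 ± 0.113). AT5G09890 had 9.92 and 9.89 in the mutant, 9.80 and 9.89 in the overexpressor, and 9.76 and 9.68 in wild type (0.19 ± 0.0869). In the first of these the mutant arrays were the lowest by a small margin, and in the second they were at or above the rest. AT1G30640 had 7.34 and 7.57 in the mutant, 7.31 and 7.40 in the overexpressor, and 7.54 and 7.90 in wild type. The remaining values of the mutant minus wild type were -0.01 for AT4G14350, -0.10 for AT3G23310, -0.03 for both AT2G19400 and AT2G20470, and 0.11 for AT4G33080.

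In the overexpressor minus wild type, 0 of the 12 partners were called (0.101% of all probe sets), which with 12 genes is near the background. At an unadjusted p under 0.05, 0 were higher (5.36% of all) and 3 were lower (6.48% of all): SGP2, AT4G19045 and AT1G30640. Their median was -0.03, beside 0.006 over all probe sets. In the overexpressor minus the mutant, 0 of the 12 were called (0.0132% of all), 0 were higher at an unadjusted p under 0.05 (2.31% of all) and 1, SGP2, was lower (2.73% of all), with a median of -0.04. The comparisons of both lines with wild type share the wild-type arrays, so values that point the same way in both are not separate evidence.

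The wider family of small GTPases was thinly covered, with 9 of 97 listed genes measured under a name, SGP2 among them. In the mutant minus wild type 0 of these 9 were called (0.0044% of all), and at an unadjusted p under 0.05, 0 were higher (4.99% of all) and 0 were lower (4.33% of all), which with 9 genes is near the background. The median was -0.05. RAB6A, a GTPase of Golgi traffic, had the highest value (0.19 ± 0.0869): 10.08 and 10.11 in the mutant, 10.08 and 9.99 in the overexpressor, and 9.94 and 9.87 in wild type. ARA6, a GTPase of endosomes (-0.12 ± 0.113), ARLA1C, an ARF-like GTPase (-0.12 ± 0.087), and AT3G62560 (-0.11 ± 0.114) had the lowest. SCN1, which restrains ROP GTPases and thereby places root hairs, was the only measured gene of 20 listed GTPase regulators. It had 9.80 and 9.81 in the mutant, 9.69 and 9.79 in the overexpressor, and 9.88 and 9.71 in wild type (0.01 ± 0.0965 for the mutant minus wild type). The RABD2 genes had no named probe set and were not analysed here.

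The loci beside SGP1 in the genome were examined next. Of the 10 loci on each side, 8 had a named probe set. In the mutant minus wild type 0 of the 8 were called (0.0044% of all), and at an unadjusted p under 0.05, 1 was higher (4.99% of all) and 1 was lower (4.33% of all). With 8 loci, 1 each way is too few to set apart from the background. The median was -0.04, with values from -0.23 to 0.31. The locus next to SGP1 on the side of lower locus numbers, AT5G54830, had 8.10 and 8.11 in the mutant, 7.96 and 7.83 in the overexpressor, and 7.69 and 7.91 in wild type. Both mutant arrays were above the other 4, and the mutant minus wild type was 0.31 ± 0.106 (unadjusted p = 0.0219, limma, adjusted p = 0.524). It was thus the opposite direction to SGP1, and it did not pass the test over all probe sets.

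On the other side, the next locus AT5G54850 had 5.75 and 5.78 in the mutant, 5.70 and 5.72 in the overexpressor, and 5.70 and 5.78 in wild type, with overlapping groups (0.03 ± 0.0838). AT5G54855, beyond it, had 9.09 and 9.05 in the mutant, 9.05 and 9.02 in the overexpressor, and 9.29 and 9.31 in wild type. Its wild-type arrays were the highest, and it gave -0.23 ± 0.082 in the mutant minus wild type (unadjusted p = 0.0252, limma, adjusted p = 0.525) and -0.26 ± 0.082 in the overexpressor minus wild type (limma, adjusted p = 0.32). The others were AT5G54860 (-0.03), AT5G54870 (-0.06), AT5G54880 (-0.05), AT5G54910 (0.22) and AT5G54780 (-0.19), none of which passed. The large drop in signal was thus not seen in any measured neighbour of SGP1. In AT5G54850 and AT5G54880, at 5.70 to 5.89 on all arrays, a drop of that size could not have been seen. The other 12 of the 20 neighbouring loci were not analysed here.

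**Figure D4:**
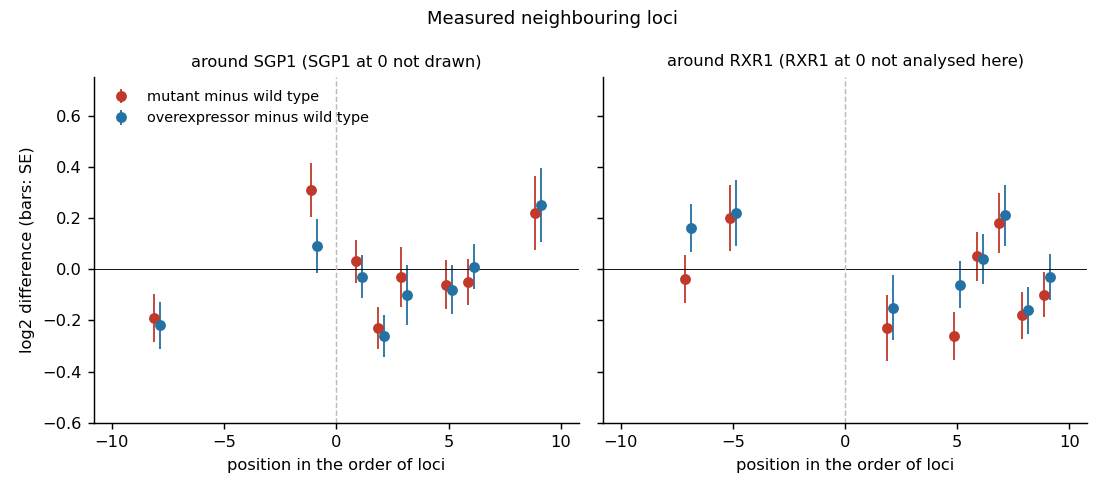
Log2 difference (vertical axis, bars are SE) of the mutant minus wild type (red) and the overexpressor minus wild type (blue) for the 8 measured loci around SGP1 (left) and the 8 around RXR1 (right), by their place in the order of loci (horizontal axis). All values lie between -0.26 and 0.31.

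The same was done around RXR1 itself, which had 0 named probe sets, so that neither its loss in the mutant nor its gain in the overexpressor was checked. Of the 10 loci on each side, 8 had a named probe set. In the mutant minus wild type 0 were called (0.0044% of all), and at an unadjusted p under 0.05, 0 were higher (4.99% of all) and 1 was lower (4.33% of all). With 8 loci these counts are too few to set apart from the background. The median was -0.07. The lower one, AT3G25280, had 4.29 and 4.32 in the mutant, 4.47 and 4.56 in the overexpressor, and 4.64 and 4.50 in wild type (-0.26 ± 0.0931, limma, adjusted p = 0.524), a level near that of the dim probe sets. The other values of the mutant minus wild type were -0.04 for AT3G25200, 0.20 for AT3G25210, -0.23 for AT3G25260, 0.05 for AT3G25290, 0.18 for AT3G25400, -0.18 for AT3G25410 and -0.10 for scpl21. AT3G25200, AT3G25260 and scpl21 were also near the dim probe sets on every array (3.99 to 4.71). AT3G25210 was at the level of EMS1 (5.03 to 5.44). A large fall could not have been seen in these dim loci. In the overexpressor minus wild type these 8 loci had a median of 0, with values from -0.16 to 0.22.

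The arrays were alike in overall brightness, with median signals of 108 to 111. Wild-type replicate 2 stood apart: its log2 signals correlated with those of the other arrays at r = 0.9909 to 0.9932, against 0.996 to 0.9979 among the other 5. Without it SGP1 was at -4.02 in the mutant minus wild type. Control probe sets at the 3' end exceeded those at the 5' end. The excess depends on how intact the RNA was and also on how brightly each probe set reports. For actin the excess was 3.22 and 3.32 in the mutant, 3.18 and 3.02 in the overexpressor, and 3.32 and 3.36 log2 in wild type. For ubiquitin it was smaller, at 1.34 and 1.32 in the mutant and 1.31 to 1.4 log2 on the other arrays. The mutant arrays did not stand apart in either, and neither excess was set against a quality limit here. Of 20 root markers 2 were measured: PYK10, a root beta-glucosidase, at 13.32 to 13.67, and EXPA7, a root hair expansin. EXPA7 had 8.17 and 8.29 in the mutant, 7.58 and 7.71 in the overexpressor, and 8.42 and 8.40 in wild type, lowest in the overexpressor. Its overexpressor minus wild type was -0.76 ± 0.0921 (unadjusted p = 6.02e-05, limma, adjusted p = 0.0526), and its mutant minus wild type was -0.18 (limma, adjusted p = 0.569). Of 16 leaf markers 2 were measured. FMA, of guard cells, was at 3.96 to 4.32, among the dim probe sets. RCA, the activase of Rubisco in chloroplasts, had 8.67 and 8.85 in the mutant, 8.58 and 8.51 in the overexpressor, and 8.94 and 9.07 in wild type, and was likewise lowest in the overexpressor. Its overexpressor minus wild type was -0.46 (unadjusted p = 0.00259, limma, adjusted p = 0.211) and its mutant minus wild type was -0.24 (unadjusted p = 0.0489, limma, adjusted p = 0.533). The part of these markers in the results was not tested.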

How the data were processed

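Root RNA was labelled with biotin and hybridised to 6 ATH1 arrays, 2 per genotype, with groups and replicate numbers taken from the labels. The authors deposited linear RMA values (unit intensity) made in Affymetrix Expression Console, per the submitters' processing notes; versions and genome build are not given in the sources used here. A second deposited copy of the intensity values differed by at most 5e-06. Log2 was taken with no pseudocount. Of 22810 probe sets, 64 controls were left out. The platform annotation gave 1 gene for 13513 probe sets, several for 503 and none for 8730; 13367 were matched to a nuclear locus of the TAIR10.1 gene table, which served for names and the order of loci alone. Where a locus had several probe sets, the brightest stood for it.

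Differences were fitted to all 22746 probe sets with lmFit and eBayes of limma 3.58.1 (R 4.3.3), using a mean for each genotype and every array; the residual degrees of freedom were 3 and the prior ones 4.25. Tests were two-sided, with Benjamini-Hochberg adjustment within each comparison; the fit was tested on simulated data. Calls needed an adjusted p under 0.05. With 2 arrays against 2, the smallest p that exact permutation allows is 0.333. The gene, the lists and the tests were chosen with earlier results of these data known. Named genes were SGP1, the measured partners, the highest and lowest GTPases, the neighbours within 10 loci, and those nearest to SGP1 by r or by the gap between the mutant and the other arrays. Alternatives were median centring, an offset of 32, a floor, a replicate block, fewer arrays, a filter, a variance trend and leaving out each array. The number of arrays limits the precision.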

Additional observations from a re-analysis of the deposited data

How the results depend on the processing

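With single arrays left out, SGP1 stood at -4.67 to -3.99 in the mutant minus wild type, 3.77 to 4.45 in the overexpressor minus the mutant and -0.53 to 0.09 in the overexpressor minus wild type. An offset of 32 before the log gave -3.39 and 3.18 for the first 2 of these, and the mutant raised to the 95th percentile of the dim probe sets gave -3.24 and 3.02; both compress low signals by construction. Without TUA1 among the dim probe sets that floor gave -4.26 and 4.03. With each array centred on its median the 3 values were -4.35, 4.13 and -0.21. At the mean of the mutant arrays 15.4% of the 13 flower, pollen and seed probe sets were above SGP1, but 0.0352% of the lowest 25% of all probe sets, which is defined by being dim.

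Called partners and GTPases were 0 in each comparison, and 0 to 1 (mutant minus wild type), 0 to 0 (overexpressor minus the mutant) and 0 to 2 (overexpressor minus wild type) with an array left out; for neighbours the ranges were 0 to 1, 0 to 0 and 0 to 2. The calls all came without wild-type replicate 1, where wild-type replicate 2, which stood apart, was the lone control, assumed to vary like the other groups. They were AT1G03920 (-0.37) and AT5G54910 (0.44) in the mutant, and AT4G19045 (-0.52), AT1G30640 (-0.55), AT5G54910 (0.47) and AT3G25400 (0.37) in the overexpressor. Over all probe sets that fit called 2743, 58 and 3790, and leaving out each array gave 0 to 2743, 0 to 58 and 0 to 3790, against 1, 3 and 23.

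With the replicate number as a block (replicate block) SGP1 stayed at -4.33, 4.11 and -0.22, 0 partners and 0 neighbours were called, and 2, 30 and 167 of all probe sets. The arrays share only a number: deviations of same-numbered arrays correlated at 0.316 (mutant and wild type), 0.125 (overexpressor and mutant) and 0.0533 (overexpressor and wild type). Counts over all probe sets were also 0, 0 and 0 with the offset, 0, 58 and 0 with only the 4 arrays compared, 1, 1 and 22 with centring, 1, 2 and 23 without the lowest 25% and 1, 3 and 38 with a variance trend. The cause was not tested.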
